A study of Mus musculus with 8 samples.

Results

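In 454 regions of the mouse genome the H3K4me3 mark formed a single peak in each of 4 brain libraries and was wider in both libraries lacking Lats1 and Lats2 than in both control libraries. The regions were selected on exactly this measure. Peaks of the 4 lists were merged into 19712 union regions, of which 11941 held exactly 1 peak in each library, and 10769 of these had a wild type mean width from 500 to under 3000 bp. Among these 10769 eligible regions, the members were the 454 (4.22%) in which the smaller dKO width was above the larger WT width, in base pairs as deposited. Their widths are therefore given as a description, with no test, and nothing is supported by them.

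Trimethylation of lysine 4 on histone H3 is placed by SET1 and MLL complexes around the starts of active genes and at CpG islands. The width of such a peak is known to differ between genes, and broad peaks are known from genes that set cell identity. LATS1 and LATS2 are the kinases of the Hippo pathway that phosphorylate the coactivators YAP and TAZ and keep them out of the nucleus. When the kinases are lost, YAP and TAZ act with TEAD factors at promoters and enhancers. Nestin-Cre is active in neural progenitors, the dividing cells of the embryonic brain.

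The study mapped H3K4me3 by chromatin immunoprecipitation and sequencing in the brain of mouse embryos at stage E12.5, on a mixed strain background. The WT group has 2 libraries from controls labelled wild type, with no Cre. The dKO group has 2 libraries labelled Lats1/2;Nestin-Cre dKO, and since only this group carries Cre, its effect and that of the lost kinases cannot be told apart. Brains were dissociated singly, per the labels' protocol, but no label ties a library to an animal, so the spread between libraries may be technical. The brain also holds cells outside the Nestin lineage, and a wider mark in each cell and more cells with a wide mark cannot be told apart in these lists. Peak positions are on mm9, and no annotation or sequence of that build was used here, so regions are named by their coordinates, no gene is assigned to any of them, and neither the tissue nor the deletion was checked against marker genes.

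The lists differed in length and in the width of their peaks before any region was chosen. They held 17367 to 19486 peaks, fewest in dKO replicate 2, and the read depth of all 4 libraries is unknown. Ranked by the median over every listed peak, WT replicate 2 came first (984 bp), then dKO replicate 1 (960 bp). WT replicate 1 (920 bp) and dKO replicate 2 (888 bp) followed, so the genotypes overlapped at this stage. Over the eligible regions the median width was 1113 and 1164 bp in WT replicates 1 and 2, and 1082 and 998 bp in dKO replicates 1 and 2, a median log2 change of -0.11 in dKO. The members thus went against a shift towards narrower peaks in dKO that was seen over the eligible regions. Peaks on chromosome Y were present in WT replicate 1 (2 peaks) and dKO replicate 2 (3 peaks) and were listed in neither of the other libraries.

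On widths as deposited, regions wider in dKO were fewer than regions separated in any other direction, whereas on centred or quantile normalized widths they were the most numerous. The reverse pattern, both WT widths above both dKO widths, was found in 4254 eligible regions (39.5%). When WT replicate 1 was paired with dKO replicate 1, both widths of that pair were the larger in 1643 of 10539 regions (15.6%), and both of WT replicate 2 and dKO replicate 2 in 944 (8.96%). When WT replicate 1 was paired with dKO replicate 2, the pair that shares chromosome Y peaks, its widths were both larger in 541 of 10243 regions (5.28%) and both smaller in 2687 (26.2%). In each of these pairings the eligible regions were redefined by the mean width of the pair with WT replicate 1. The count of members was therefore below all 4 counts from pairings that ignore genotype, and no p-value is attached to it.

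**Figure D1:**
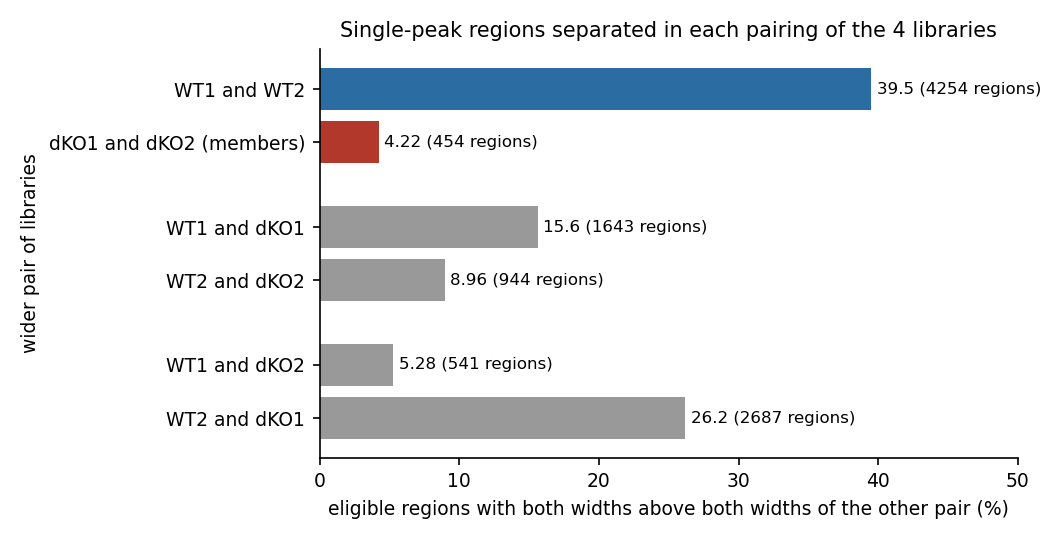
Share of eligible regions (%, horizontal axis) in which both widths of the named pair of libraries were above both widths of the other pair, for the 3 ways of pairing WT replicates 1 and 2 (WT1, WT2) with dKO replicates 1 and 2 (dKO1, dKO2). The members, wider in both dKO libraries, are the shortest bar at 4.22%, and the regions wider in both WT libraries are the longest at 39.5%.

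The balance of wider and narrower regions depended on the scale. On widths as deposited, 9.64% of the regions separated by genotype were wider in dKO. After each library was centred on its median log2 width, 2534 regions were wider and 1789 narrower, so that 58.6% were wider. With quantile normalization the counts were 2386 and 1635 (59.3% wider). The wider count was then the highest of all directions, the next being 1811 after centring and 1790 after quantile normalization. The count also grew when a library was left out, since 1 library then stands for its genotype. It was 1131 without WT replicate 1, 1909 without WT replicate 2, 897 without dKO replicate 1 and 2292 without dKO replicate 2.

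Most members differed by a small step at the edge of the peak. Median widths of the members were 1098 and 1095 bp in the WT libraries and 1241.5 and 1200.5 bp in the dKO libraries. The mean width rose from a median of 1088.5 bp in WT to 1231.25 bp in dKO, and the median difference per region was 106.25 bp (quartiles 63.75 and 162.75 bp). Over all eligible regions the same median was -87 bp. The dKO to WT fold of mean widths had a median of 1.10 and reached 1.5 in 5 members. Within dKO, replicate 1 was the wider library in 290 of the 454 members, a share (63.9%) below that over all eligible regions (71.6%).

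**Figure D2:**
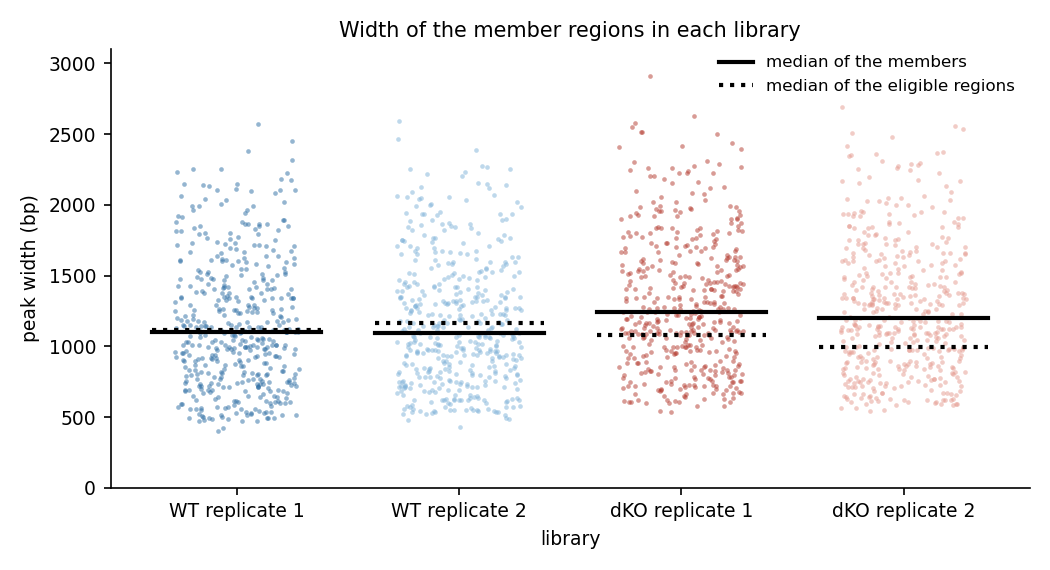
Width in bp (vertical axis) of each of the 454 members in each library, with solid bars at the median of the members and dotted bars at the median of the 10769 eligible regions. The members lie at 1098 and 1095 bp in WT, near the eligible medians of 1113 and 1164 bp, and at 1241.5 and 1200.5 bp in dKO, above the eligible medians of 1082 and 998 bp.

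The gap that separates the genotypes, the smaller dKO width minus the larger WT width, was often no larger than the spread between replicates. It ranged from 1 to 403 bp with a median of 37 bp. Within the members, WT replicates differed by a median of 46 bp and dKO replicates by 49.5 bp. Across all eligible regions these medians were larger, at 100 bp for WT and 103 bp for dKO. The rule favours regions with close replicates, so the spread within the members understates that of the lists. In 122 members (26.9%) the gap was above the replicate difference of both genotypes, which is 1.13% of the eligible regions. The same requirement was met by 12.6% of them in the narrower direction. In the pairings that ignore genotype it was met by 3.71% and 2.02% (WT replicate 1 with dKO replicate 1 wider, then narrower) and by 1.37% and 7.08% (WT replicate 1 with dKO replicate 2 wider, then narrower). A gap of at least 100 bp was found in 77 members, 0.715% of the eligible regions, against 14.2% in the narrower direction. For the other pairings, in the same order, the shares were 3.18%, 1.56%, 0.693% and 6.78%. A gap of at least 200 bp was left in 9 members.

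**Figure D3:**
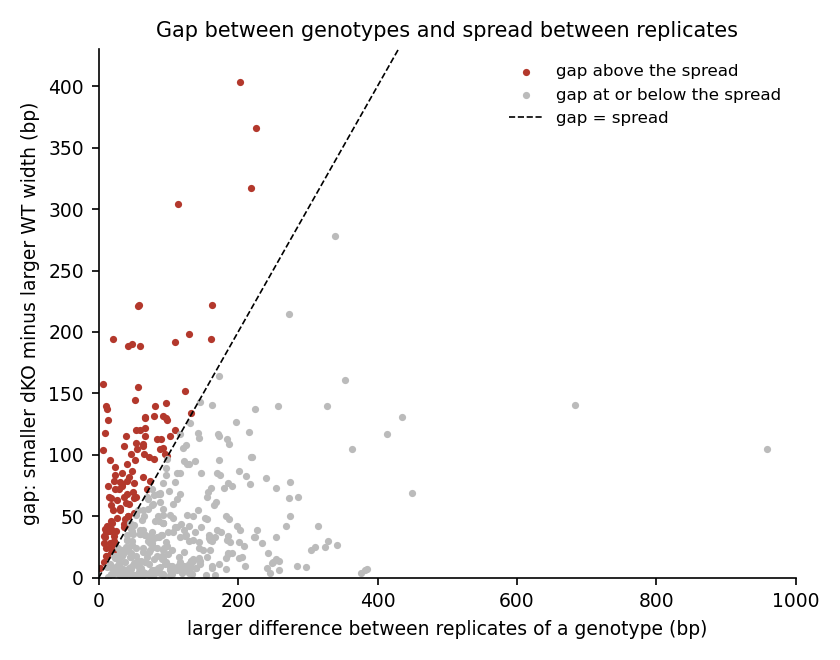
Gap between the genotypes (vertical axis, bp) against the larger of the WT and dKO replicate differences (horizontal axis, bp), 1 point per member. The 122 red points above the dashed line have a gap larger than both replicate differences, and the other members lie on or below the line, out to a replicate difference of 959 bp.

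At the boundary of the rule, members and other regions differed by a few base pairs. The member nearest to it lay on chromosome 13 from 99694877 to 99696848, where the peaks measured 1946 and 1933 bp in WT, compared with 1947 and 1955 bp in dKO. Just outside was the region on chromosome 10 from 29032484 to 29033228, where they measured 637 and 650 bp in WT, compared with 745 and 650 bp in dKO. Next came the member of chromosome 4 that starts at 34010556 and ends at 34012610, with a gap of 1 bp, and that of chromosome 10 from 9619566 to 9621735, with a gap of 2 bp. A gap of 0 bp was also found on chromosome 11 from 97642606 to 97644562 and again at 3532038 to 3533608 of chromosome 15, among 9 such eligible regions in all. A few base pairs at a border thus decided whether such a region was a member.

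The largest ratio between the smaller dKO and the larger WT width was found on chromosome 10 from 78053521 to 78054653. The peak measured 681 and 478 bp in WT replicates 1 and 2, and 1084 and 1113 bp in dKO replicates 1 and 2. Both dKO widths were thus at least 403 bp above the larger WT width, and mean width was 579.5 ± 144 bp in WT compared with 1098.5 ± 20.5 bp in dKO (SD, n = 2 each). The dKO to WT fold was 1.90. The dKO peaks began at 78053563 and 78053521 and the WT peaks at 78053954 and 78054176, whereas all 4 ended between 78054633 and 78054653. The whole gain lay at the left border. A separate peak of 261 bp followed 154 bp beyond the region in WT replicate 1 and in no other library. With peaks closer than 1000 bp joined before the lists were merged, WT replicate 1 reached 1115 bp, above both dKO widths, so that the region was no longer wider in both dKO libraries and its log2 fold went from 0.92 to 0.46.

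Next in order were 2 short regions on chromosome 4. The first, from 87014180 to 87015007, measured 479 and 538 bp in WT, compared with 727 and 756 bp in dKO. Its gain was at the right border, 214.5 bp on average against 18.5 bp at the left. The second, from 137024687 to 137025749, measured 491 and 549 bp in WT, compared with 1063 and 710 bp in dKO. Its dKO libraries differed by more (353 bp) than the gap of 161 bp, and the right border moved by 372.5 bp on average. A peak of 248 bp lay 216 bp to the left in WT replicate 2 alone. Joined with it, WT replicate 2 reached 1014 bp, above the 710 bp of dKO replicate 2, so that membership was lost and the log2 fold went from 0.77 to 0.24.

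The region on chromosome 11 from 97170884 to 97171680 measured 512 and 539 bp in WT, compared with 694 and 751 bp in dKO. Its mean rose from 525.5 ± 19.1 bp to 722.5 ± 40.3 bp (SD, n = 2 each), with replicates close together in both genotypes, and the left border moved by 201 bp. On chromosome 9 from 43942749 to 43943838 the peaks measured 753 and 809 bp in WT, compared with 1082 and 1030 bp in dKO. There the right border moved by 272.5 bp and the left by 2.5 bp, and a short peak 165 bp to the left was present in replicate 1 of each genotype. Joining it took WT replicate 1 to 1279 bp, above the 1030 bp of dKO replicate 2, which ended membership and lowered the log2 fold from 0.44 to 0.30.

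The member on chromosome 8 from 37675161 to 37677371 was displaced as well as wider. The peak measured 1342 and 1388 bp in WT, compared with 1980 and 1754 bp in dKO, a rise from 1365 ± 32.5 bp to 1867 ± 160 bp (SD, n = 2 each). Its left border lay 753 bp further out in dKO, the largest shift of a left border among the members, and its right border lay 251 bp further in. The WT peaks ran from 37675882 to 37677223 and from 37675984 to 37677371, and the dKO peaks from 37675199 to 37677178 and from 37675161 to 37676914. A further peak of 282 bp, 75 bp to the left, was listed in dKO replicate 1 alone.

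A member on chromosome 2 from 174152395 to 174153694 gained at both borders. It measured 991 and 1020 bp in WT, compared with 1242 and 1300 bp in dKO, with 116.5 bp added at the left and 149 bp at the right on average. Its gap of 222 bp was several times the replicate differences of 29 and 58 bp. To its right, beyond a short peak seen in WT replicate 2 alone, a region lay 882 bp away that was called in 1 to 3 pieces. The pieces summed to 2333 and 2477 bp in WT, compared with 2476 and 1961 bp in dKO, so that the genotypes overlapped there. Gaps between pieces were not counted, with 3 pieces in WT replicate 1 and 2 in dKO replicate 2. With neighbouring peaks joined the domain no longer held a single peak in each library and could not be assessed.

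The other members among the first 10 were on chromosomes 10, 5 and 3. On chromosome 10 from 57786162 to 57787277 the peaks measured 869 and 827 bp in WT, compared with 1085 and 1058 bp in dKO, with the gain at the right border (256 bp). With neighbouring peaks joined in the same way, the log2 fold there turned from 0.34 to -0.071, because a short peak 243 bp to the left, absent in dKO replicate 1, then joins the domain in the other 3 libraries. On chromosome 5 from 88982444 to 88983273 the peaks measured 533 and 522 bp in WT, compared with 830 and 646 bp in dKO. The next peak there began 77 bp further on and overlapped between genotypes, with 1038 and 1021 bp in WT, compared with 1226 and 994 bp in dKO.

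The member with the largest difference in mean width lay on chromosome 3 from 145315165 to 145316787, and rested mostly on dKO replicate 1. The widths were 491 and 559 bp in WT, 1623 bp in dKO replicate 1 and 664 bp in dKO replicate 2. Mean width was 525 ± 48.1 bp in WT compared with 1143.5 ± 678 bp in dKO (SD, n = 2 each). The fold was 2.18 and the gap 105 bp. The peak began at 145315165 in dKO replicate 1 and at 145316044 in dKO replicate 2, against 145316165 and 145316133 in WT. Its surroundings were also wider in dKO. A region 1139 bp to the left held no peak in WT replicate 1, 262 bp in WT replicate 2, and 529 and 377 bp in dKO. The region from 145310172 to 145313223 beyond it held 1579 and 1519 bp under peaks in WT, compared with 3052 and 2242 bp in dKO. The 2242 bp of dKO replicate 2 were the sum of 2 peaks.

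The next 5 members were named for the largest mean difference in base pairs, so that a large difference was set by this choice. Their WT mean widths ran from 984 to 2035.5 bp and their folds from 1.22 to 1.50. The region on chromosome 3 from 27607800 to 27610348 measured 1829 and 2048 bp in WT, compared with 2549 and 2365 bp in dKO (1.27-fold). The left border moved by 486.5 bp and the right by 32 bp, and the nearest other region was 226850 bp away. On chromosome 1 from 168930448 to 168933088 the peaks measured 1866 and 2205 bp in WT, compared with 2580 and 2483 bp in dKO. Here the WT libraries differed by 339 bp, more than the gap of 278 bp.

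The region on chromosome 11 from 83880469 to 83882325 measured 996 and 972 bp in WT, 1821 bp in dKO replicate 1 and 1137 bp in dKO replicate 2. As on chromosome 3 from 145315165, the size of the difference came mainly from dKO replicate 1, and the left border moved by 537 bp on average. On chromosome 10 from 24315080 to 24316986 the peaks measured 1192 and 969 bp in WT, compared with 1758 and 1323 bp in dKO. The right border lay 591 bp further out on average, the largest shift of a right border among the members, with dKO peaks that ended at 24316986 and 24316546 and WT peaks that ended at 24316302 and 24316048. The left border lay 131 bp further in. Mean width was 1080.5 ± 158 bp in WT compared with 1540.5 ± 308 bp in dKO (SD, n = 2 each), and the spread between replicates was wide in both genotypes.

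The fifth of these, on chromosome 19 from 50751131 to 50753688, measured 2173 and 1760 bp in WT, compared with 2518 and 2290 bp in dKO. It was the most isolated member, with 2358562 bp to the nearest other region. Its WT libraries differed by 413 bp, the most of any member, against a gap of 117 bp.

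**Figure D4:**
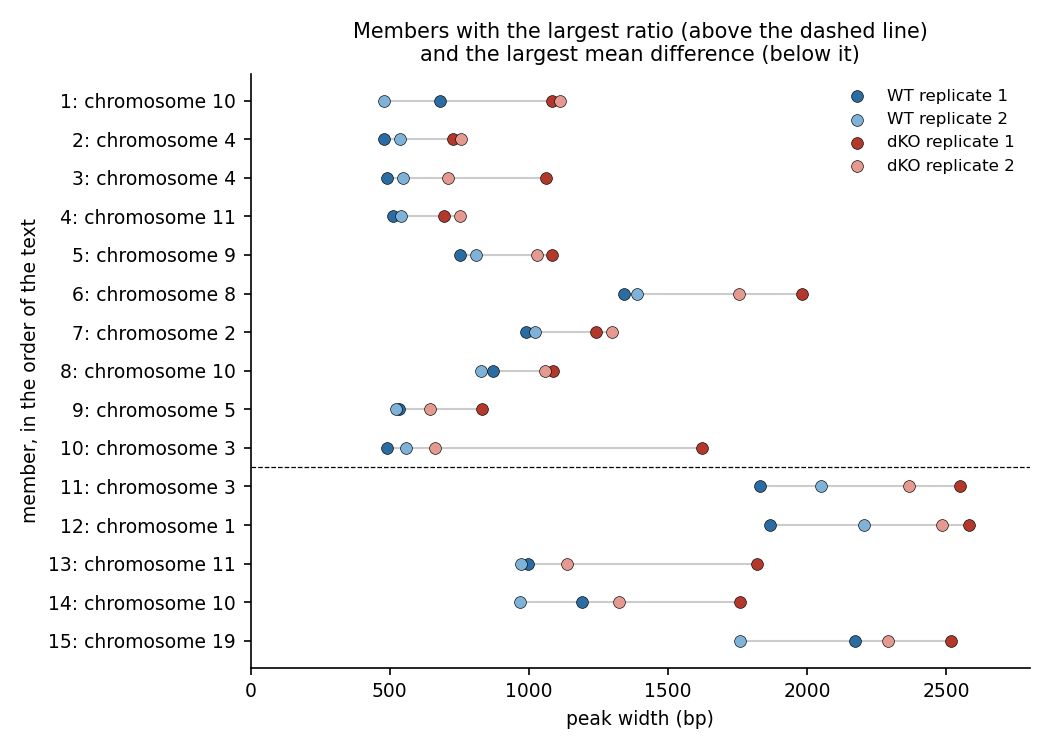
Width in bp (horizontal axis) of 15 members in each of the 4 libraries, numbered in the order of the text. In every row both dKO points (red) lie to the right of both WT points (blue), as the rule requires, and in rows 10 (chromosome 3) and 13 (chromosome 11) dKO replicate 1 stands far from dKO replicate 2.

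The 3 widest members in WT differed by small folds, and each had a gap under 100 bp. This did not hold for every wide member, since that on chromosome X from 49515858 to 49518541 had a gap of 304 bp. The widest member in WT, on chromosome 10 from 58683351 to 58686269, measured 2574 and 2596 bp in WT, compared with 2914 and 2694 bp in dKO (1.08-fold). On chromosome 6 from 47543377 to 47545987 the peaks measured 2450 and 2468 bp in WT, compared with 2512 and 2507 bp in dKO, and with neighbouring peaks joined first its log2 fold turned from 0.029 to -0.15. The third, on chromosome 3 from 126299053 to 126301625, measured 2378 and 2270 bp in WT, compared with 2408 and 2537 bp in dKO.

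Short members ranged widely, and those with the largest ratios are described above. The narrowest member, on chromosome 19 from 6275935 to 6276581, measured 491 and 514 bp in WT, compared with 619 and 565 bp in dKO, beside a region 208 bp to its right of 1939 and 1929 bp in WT, compared with 1969 and 1329 bp in dKO. Joining these turned its log2 fold from 0.24 to -0.075. The widths on chromosome 1 from 136240714 to 136241311 were 492 and 522 bp in WT, compared with 577 and 596 bp in dKO, and those on chromosome 11 from 69509008 to 69509732 were 472 and 557 bp in WT, compared with 706 and 625 bp in dKO.

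The share of members that gained at a single border depended on how a border was scored. A border was counted as moved where both dKO peaks reached beyond both WT peaks. Exactly 1 border had moved in 320 of the 454 members (70.5%), both had in 67 (14.8%) and neither had in 67. Over all eligible regions exactly 1 border had moved out in 11.7% and both in 0.622%. By the mean shift instead, both borders lay further out in dKO in 280 members (61.7%), against 7.32% of all eligible regions. The left border had moved in 223 members and the right in 231, against 6.30% and 6.66% of all eligible regions, and since a wider peak must extend somewhere these shares were set largely by the rule. Left and right are genomic directions, as no strand is known. In 49 members (10.8%, against 3.75% of the eligible regions) 1 border moved out while the opposite border moved in, as on chromosome 8 from 37675161. The rule raises this share too, because it selects for borders that moved out. Among regions with exactly 1 border moved out, the opposite one moved in for 49 of 320 members. Over the eligible regions this held for 404 of 1261. Members must be wider, which limits how far the opposite border can move in, so this contrast is also set by the rule. For the 4254 regions that were narrower in dKO, exactly 1 border had moved in for 2706 (63.6%) and both for 1191 (28.0%). Over all eligible regions these shares were 43.9% and 11.1%, and the choice of narrower regions raised them in the same way.

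**Figure D5:**
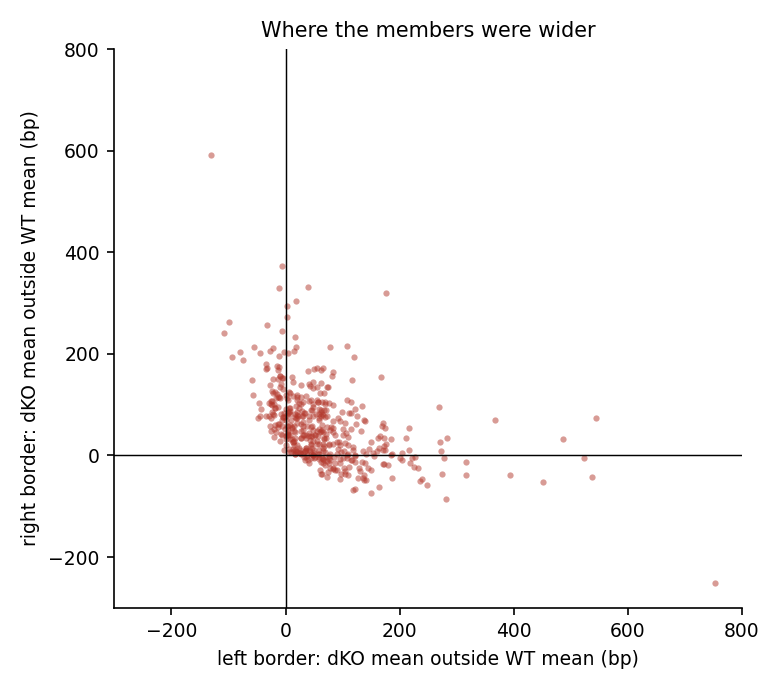
Mean shift of the right border (vertical axis, bp) against that of the left border (horizontal axis, bp), dKO relative to WT and positive where the dKO peak reached further out, 1 point per member. Points near an axis gained at 1 border. The point furthest right is the chromosome 8 member, at 753 bp left and -251 bp right, and the highest point is the chromosome 10 member, at -131 bp left and 591 bp right.

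The members were close to the eligible regions in starting width. Their median WT mean width was 1088.5 bp, against 1137 bp over the eligible regions and 1165.5 bp in those narrower in dKO. Members made up 4.68% of eligible regions from 500 to under 750 bp, 4.28% from 750 to under 1000 bp, 4.29% from 1000 to under 1500 bp, 4.09% from 1500 to under 2000 bp and 2.94% from 2000 to under 3000 bp. Those narrower in dKO ran the other way at the upper end, with 37.6% in the first of these ranges and 45.3% in the last. The WT widths that set these ranges also entered the rule, so these trends cannot be told apart from the selection.

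By the peaks' deposited score, which belongs to the authors and has no stated scale, the members ranked somewhat above the middle in every library. Among the eligible regions, ranked from 0 to 100 in each library, the members' median percentile was 57.7 and 56.3 in WT and 58.8 and 57.9 in dKO, where the median of all eligible regions is near 50 by construction. Members were 2.81% of eligible regions with a mean WT percentile from 0 to under 20 and 3.54% from 20 to under 40. They were 5.43% from 40 to under 60, 4.06% from 60 to under 80 and 5.24% from 80 to under 100. The first 10 by ratio ranked lower, since 7 of them had a mean WT percentile under 25, as did 79 of all members. The lower quartile of this mean percentile was 33.7 in the members, against 25.9 over the eligible regions. Of the first 10, 8 also had a WT mean width under 1000 bp. On chromosome 3 from 145315165 the percentile was 0.283 and 1.33 in WT and 9.48 and 18.0 in dKO.

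In most members the genotypes overlapped in the rank of the score. It was higher in both dKO libraries than in both WT libraries in 90 members (19.8%, against 17.7% of the eligible regions) and lower in both in 60 (13.2%, against 16.8%). On chromosome 8 from 37675161 it was higher in both, at 18.2 and 10.5 in WT and 34.6 and 31.1 in dKO. On chromosome 2 from 174152395 the genotypes overlapped, at 7.42 and 11.9 in WT and 10.5 and 8.70 in dKO.

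The members were spread over the genome much as the eligible regions were. They lay on 19 autosomes and chromosome X, from 43 on chromosome 2 (4.93% of its eligible regions) and 35 on chromosome 4 (5.07%) to 11 on chromosome 14 (3.01%) and 11 on chromosome 15 (2.57%). The highest share was on chromosome 3 (29 regions, 5.30%), and chromosome X held 12 (3.73%). Eligible regions next to a member were members themselves in 36 of 908 cases (3.96%), close to the 4.22% over all. The nearest such pair lay on chromosome X, from 103206364 to 103207213 and from 103211048 to 103211880, with 3834 bp between them. Runs of 3 members lay on chromosome 1, with starts at 136240714, 136257606 and 136302125, on chromosome 13, with starts at 74146392, 74199025 and 74345462, and on chromosome 16, with starts at 19760287, 20097550 and 20140850.

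The surroundings of the members were also like those of the eligible regions. Another union region lay within 1000 bp of 122 members (26.9%, against 24.2%), and the median distance to the nearest one was 18195 bp, against 17024 bp. The neighbour within 1000 bp had a peak in all 4 libraries for 71 members, in WT libraries alone for 29 (6.39%, against 5.46%) and in dKO libraries alone for 3 (0.661%, against 0.669%). Among the first 10 by ratio, 7 had a neighbour within 1000 bp. With peaks closer than 1000 bp joined first, 351 of the 454 members (77.3%) were still single and wider in both dKO libraries, and 14 of the 20 named members that remained eligible were, while the other 6 were not. Only the 122 members with another region within 1000 bp could change in this setting. Most of those kept had no peak to join, so the 77.3% does not measure how stable the members were.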

How the data were processed

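H3K4me3 peak lists of 4 libraries were analysed, and 4 input libraries were not analysed here. MACS2 2.1.1.20160309 is named in the submitters' processing notes, beside bedtools, BWA 0.7.12-r1039, SAMtools, Picard 2.6.0 and R 2.14.0, with mm9 as the build and no role or threshold given. The deposited score of each peak was used only for ranks within a library. Depth is unknown, so no counting interval is given, and the width of a called peak depends on depth and on the caller's threshold.

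Lists were merged with bedtools 2.31.1 at distance 0 and processed with Python 3.11.15, pandas 2.3.3 and numpy 2.4.6, and plots drawn with matplotlib 3.10.9. The rule was run on simulated lists in which the widened regions stood well clear of the rest, so this run does not bear on small gaps. Starts were counted from 1. Members and lists were chosen with earlier results of these data known. Named members were the 10 with the largest ratio of the smaller dKO to the larger WT width, the 5 further ones with the largest mean difference, the 3 widest and 3 narrowest others in WT, and for the boundary the 3 regions on either side. Lists of genes had been set, and were not tested because no gene could be assigned.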

Additional observations from a re-analysis of the deposited data

How the results depend on the processing

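With 2 libraries per genotype and unknown depth, the widths describe these lists only. The count of members, 454, became 2534 with centred and 2386 with quantile normalized widths, 77 with a margin of at least 100 bp, and, leaving out single libraries, 897 to 2292 (1131 and 1909 without WT replicates 1 and 2, 897 and 2292 without dKO replicates 1 and 2). The lowest count in the other pairings, 541, became 1251, 1352 and 71 in the first 3 of these settings, and leaving out single libraries it was 1035 to 2268, so the members were the smallest count as reported, the largest with centred or quantile normalized widths, and not the smallest with the margin or without WT replicate 1, WT replicate 2 or dKO replicate 2. As a replicate block, each dKO library above the WT library of its own number, 733 regions were wider. The numbers share no source in the labels, and the correlation of replicate differences between genotypes was -0.021 across 10769 regions. Counts stayed within 1.5 times of the reported ones with neighbouring peaks merged, equal lists, other width limits, several peaks allowed and autosomes only, and with 1 set of eligible regions for every pairing, an alternative added after the data were seen. The median difference of the members, 106.25 bp, was 206 bp with the margin. Merging peaks within 1000 bp turned the log2 fold on chromosome 10 from 57786162 (-0.071), chromosome 6 from 47543377 (-0.15) and chromosome 19 from 6275935 (-0.075). None of the other named members that could be assessed turned, and the member on chromosome 2 from 174152395 could not be.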
